A study of Mus musculus with 19 samples.

Results

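OX40, 4-1BB and GITR are 3 receptors of the tumor necrosis factor (TNF) receptor superfamily on T cells, encoded by Tnfrsf4, Tnfrsf9 and Tnfrsf18. They were taken by gene name, as 3 of the 28692 genes in the count matrices, together with the 3 antibodies against them among the 111 antibodies that every lane held (OX40, also CD134, clone OX-86. 4-1BB, also CD137, clone 17B5. GITR, also CD357, clone DTA-1). RNA and surface protein were counted in the same thymocytes by CITE-seq, in which antibodies carry DNA barcodes that are sequenced with the messenger RNA. The study asked how developing T cells become CD4 or CD8 cells, in 17 mice of 4 to 8 weeks on 19 lanes.

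Wild-type C57BL/6 mice (5, called WT 1 to WT 5) make both lineages. The 6 CD4-fated mice were 2 AND and 2 OT-II mice, whose transgenic T cell receptors (TCRs) see major histocompatibility complex (MHC) class II, and 2 MHCI-/- mice, which lack B2m and keep a diverse TCR repertoire. The 6 CD8-fated mice were 2 F5 and 2 OT-I mice, whose transgenic TCR sees MHC class I, and 2 MHCII-/- mice, which lack H2-Ab1. The AND and F5 mice also lacked Rag1, so their T cells carry the transgenic TCR alone, and F5 is driven by the CD2 promoter. Thymocytes of the MHC-deficient mice and of WT 1 to WT 3 were sorted as CD5+TCRβ+ and the others were loaded unsorted. Sort and genotype thus cannot be told apart between the MHC-deficient and the transgenic mice. The 3 experiments differ in genotype too: all OT-I and OT-II mice, WT 4 and WT 5 were in the third.

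These receptors are known as costimulators that T cells display after antigen recognition, and their ligands sit on antigen-presenting cells. All 3 lack enzyme activity and pass their signal through TRAF adaptor proteins to the NF-kappaB transcription factors. In the thymus they are best known on regulatory T cell (Treg) precursors, where signals through them aid the step to a mature Foxp3-expressing cell, and Tnfrsf9 is also known as a gene that strong TCR signals induce.

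All 3 genes lie on the plus strand of mouse chromosome 4 (build GRCm38). Tnfrsf9 (ENSMUSG00000028965) spans chr4:150914562-150946102, Tnfrsf4 (ENSMUSG00000029075) chr4:156013843-156016612 and Tnfrsf18 (ENSMUSG00000041954) chr4:156026164-156028895. Tnfrsf4 and Tnfrsf18 are neighbours 9.55 kb apart, and Tnfrsf9 lies 5.07 Mb before them. Sdf4, a gene on the same strand, ends 232 bases before Tnfrsf4, and reads running past its end could be counted to either gene.

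Upstream sequence is shown because all 3 RNAs were higher in Treg-like and in negative selection-like cells in the class contrasts described below. The stretches come from RefSeq promoter windows of GRCm38.p6, cut to the bases outside annotated exons, 5′ to 3′ on the plus strand. Capitals mark matches to the NFAT motif (GGAAA) and the STAT5 motif (TTCNNNGAA) on either strand, and the stretch shown for Tnfrsf4 holds neither.
Tnfrsf4, chr4:156013611-156013694: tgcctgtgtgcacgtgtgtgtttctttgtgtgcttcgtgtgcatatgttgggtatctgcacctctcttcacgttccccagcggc
Tnfrsf9, upstream of its second start, chr4:150927749-150927917: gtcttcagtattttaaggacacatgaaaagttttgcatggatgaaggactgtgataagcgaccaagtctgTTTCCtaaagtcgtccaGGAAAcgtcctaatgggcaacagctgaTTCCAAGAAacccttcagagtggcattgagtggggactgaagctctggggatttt
Tnfrsf18, chr4:156026072-156026163: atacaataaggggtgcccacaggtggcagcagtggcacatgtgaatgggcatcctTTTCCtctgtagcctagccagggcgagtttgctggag
The second Tnfrsf9 start also held 2 overlapping NF-kappaB matches, 43 and 42 bases before it, shown in capitals within a 30-base site at chr4:150927946-150927975.
Tnfrsf9 NF-kappaB site: cagagcagctGGGGATTTCCCaggaggccc
Over 250 bases before the start, that Tnfrsf9 window alone among the windows of the 3 genes held an NF-kappaB match, found in 7.25% of 32851 such windows, and an AP-1 match (TGANTCA), found in 6.75%. Every window held NFAT matches, as did 55.6% of all windows. STAT5 matches, in 7.02% of all windows, stood in those of Tnfrsf18 and of the second Tnfrsf9 start, and the EGR motif (GCGNGGGCG, 4.7%) in none. Some of these letters overlap, and a match is a description of sequence, not of binding. The windows end at RefSeq starts, which differ from the gene starts given above. For Tnfrsf18 that start is chr4:156026322, so its STAT5 match and an NFAT match, 99 and 61 bases before it, lie inside the gene span. For Tnfrsf4 it is chr4:156013695, and the NFAT match 220 bases before it lies inside Sdf4. The Tnfrsf9 NF-kappaB site lies past the exon-free stretch shown.

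The lanes held 2550 to 9408 barcodes, and 69227 cells were kept of 85389. Median depth was 1519 to 7259 RNA UMIs (unique molecular identifiers) per cell, and any 2 lanes shared at most 35 barcodes. B2m was at 46.9 and 48.7 CPM (counts-per-million, the gene's share of all RNA UMIs in the sum) in the MHCI-/- mice and at 403 to 1254 CPM in the others, as their labels state. H2-Ab1 RNA was at 8.84 and 8.74 CPM in the MHCII-/- mice, within the 3.06 to 17.7 of the other sorted mice, and Rag1 RNA at 5.09 to 53.8 CPM in the AND and F5 mice, beside 26.4 and 52.2 in OT-I, so RNA does not check these labels. The lanes of WT 5, OT-I 2 and OT-II 2 stood apart in RNA from the rest of the third experiment and were treated as a batch of their own. Within each genotype they were also shallower. Median RNA UMIs were 1579 and 1519 in the WT 5 lanes against 3483 and 2880 in those of WT 4. They were 3192.5 against 7259 in the OT-I mice and 2150 against 4303 in the OT-II mice. The part of depth in this was not tested. AND 2 lost more than the other lanes, with 42.1% of its barcodes kept, at a median of 1106 antibody UMIs. Cells were grouped into 28 clusters with the 3 genes left out, and clusters were named from marker lists. A cluster called Treg-like led with Foxp3, Ikzf4, Ctla4 and the 3 receptors themselves.

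RNA of the receptors was highest in the negative selection-like and Treg-like classes. Levels are UMIs summed per mouse and class, given as CPM for RNA and per 10000 antibody UMIs for protein, for mice with at least 20 cells of the class. In Treg-like cells (12 mice) Tnfrsf4 was at 361 ± 194 CPM (mean ± SD), from 11.3 through a median of 422 to 611. Tnfrsf18 was at 296 ± 139 CPM there, from 63.6 through 318 to 479.7 CPM, and Tnfrsf9 at 154 ± 52.2, from 22.7 through 163 to 222. The lowest values came from AND 1 and OT-I 2 for Tnfrsf4 and Tnfrsf18, and from AND 1 for Tnfrsf9.

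Both of those mice go partly against the name of the class. Foxp3 was at 39.7 CPM in 40 AND 1 cells and at 10.6 CPM, a single UMI, in 33 OT-I 2 cells, against 102 to 203 CPM in the other 10 mice. Il2ra, a receptor chain for interleukin-2 that marks Tregs, was at 5.67 CPM and 0 in these 2 mice, and at 6.36 CPM in OT-I 1.

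In negative selection-like cells (14 mice), named from Bcl2l11, Pdcd1, Nr4a1, Nr4a3, Ikzf2 and Gadd45b, Tnfrsf9 was the most abundant of the 3, at 185 ± 88.1 CPM, from 0 through 202 to 322. Tnfrsf4 was at 129 ± 114.5 CPM, from 0 through 104 to 323, and Tnfrsf18 at 142 ± 86.2, from 30.1 through 125 to 288. F5 1 was the mouse at 0, with no UMI of Tnfrsf4 or Tnfrsf9 in 41 cells.

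Elsewhere the 3 genes parted. Tnfrsf18 kept a floor that the other 2 lacked, with 54.7 ± 21.3 CPM in quiescent double-positive (DP)-like cells, 50.2 ± 26.5 in signaled DP-like cells, 69.2 ± 34.8 in mature single-positive (SP)-like cells and 47.9 ± 17.8 in CD8 SP-like cells. Tnfrsf4 was at 5.06 ± 4.93, 17.1 ± 16.3, 40.8 ± 40.1 and 3.29 ± 2.23 CPM in the same 4 classes. Tnfrsf9 was at 1.81 ± 2.01, 5.58 ± 4.90, 6.58 ± 5.13 and 13.6 ± 10.7 CPM. CD8 SP-like cells thus held more Tnfrsf9 than Tnfrsf4 RNA, and mature SP-like cells the reverse. Because reads come from the 3′ end, CPM is not divided by gene length here, and a level is compared between genes as tags and not per length.

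In the order of means over 12 named classes, Treg-like stood above negative selection-like by more than the larger SD for Tnfrsf4 and Tnfrsf18. For Tnfrsf9 those 2 classes differed by less than 1 SD, and both stood above the next class, CD8 SP-like. Every other pair of neighbours differed by less than the larger of their SDs, down to gamma-delta T-like cells for Tnfrsf4 (1.83 ± 2.44 CPM), double-negative (DN)-like cells for Tnfrsf9 (1.06 ± 1.06) and cycling-like cells for Tnfrsf18 (13.9 ± 5.604).

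**Figure D1:**
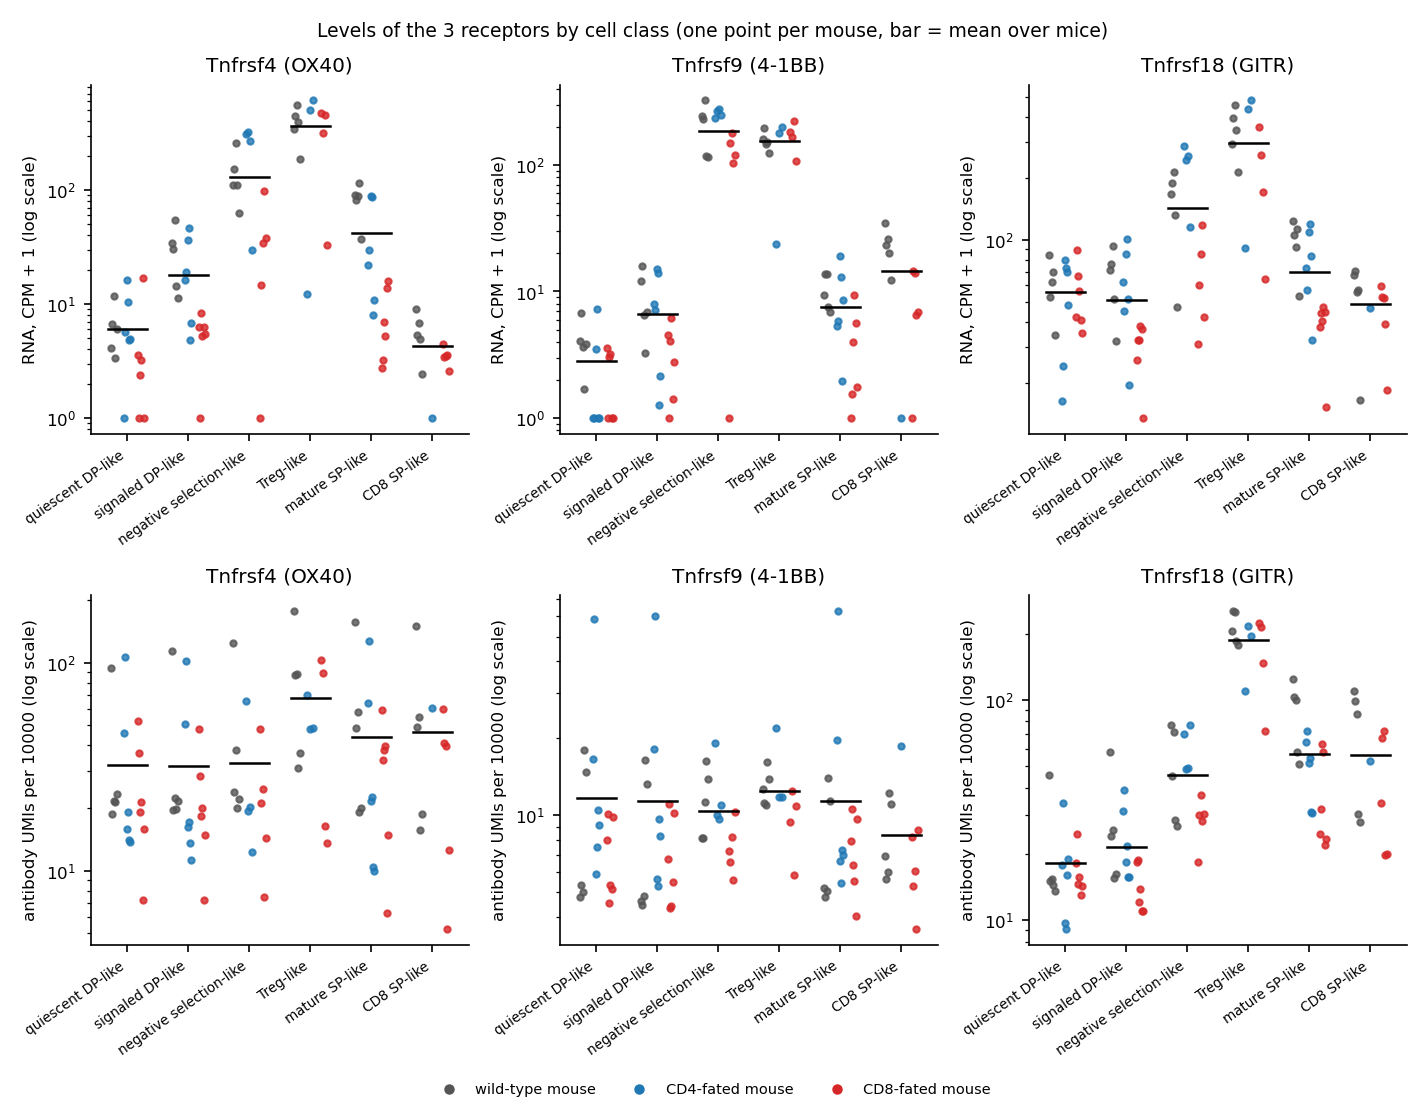
RNA level (CPM + 1, log scale, top row) and antibody level (UMIs per 10000 antibody UMIs, log scale, bottom row) of the 3 receptors in 6 cell classes, with a point per mouse and a bar at the mean over mice. RNA of each receptor peaks in negative selection-like and Treg-like cells, and of the antibodies GITR shows the clearest peak, with 72.7 to 254 per 10000 in Treg-like cells.

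The antibodies did not share that order. GITR antibody was highest in Treg-like cells as its RNA was, but in negative selection-like cells it was at 45.7 ± 20.6 per 10000, below interferon-like (61.8 ± 34.9), mature SP-like and CD8 SP-like cells (56.4 ± 32.6). It was at 188 ± 54.5 per 10000 in Treg-like cells, from 72.7 through 201 to 254, against 56.7 ± 29.9 in mature SP-like and 18.3 ± 9.13 in quiescent DP-like cells. OX40 antibody was at 67.4 ± 45.8 in Treg-like, 33.0 ± 30.5 in negative selection-like and 32.2 ± 28.2 in quiescent DP-like cells. Over classes the mean of 4-1BB antibody ran from 8.39 ± 4.24 in CD8 SP-like cells (11 mice) to 16.1 ± 14.9 in gamma-delta T-like cells (9 mice), where AND 2 was at 53.5 and the median was 10.9, below the 11.8 of Treg-like cells.

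Part of the antibody spread went with the experiment. In quiescent DP-like cells, where Tnfrsf4 RNA is near 0, OX40 antibody ran from 45.9 to 94.4 per 10000 in the first experiment (3 mice), from 15.9 to 106 in the second (8 mice) and from 7.20 to 23.4 in the third (6 mice). No isotype control antibody was in the panel, so a level without the receptor is not known, and its part in the results was not tested. The main antibody tests below start from differences within mice or within families of genotypes, each from 1 or 2 experiments. The correlations with RNA over all sums and the mice flagged at the end compare levels across experiments.

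The share of cells with a UMI was compared at equal depth. At an equal depth of 2000 RNA UMIs per cell, 37.3% of 1742 Treg-like cells held a Tnfrsf4 UMI (95% exact binomial interval 35.04 to 39.6), 21.3% a Tnfrsf9 UMI (19.4 to 23.3) and 43.3% a Tnfrsf18 UMI (41.0 to 45.7). In negative selection-like cells (3644) the shares were 10.5%, 16.9% and 17.7%. In quiescent DP-like cells (8321) they were 0.481%, 0.324% and 12.3%. DN-like cells, which precede TCR signaling, held 0.404%, 0.404% and 4.75%. The intervals cover counting error only. Thinning left out 91 Treg-like, 470 negative selection-like, 5545 quiescent DP-like and 10 DN-like cells, and before it the Treg-like shares were 52.2%, 32.5% and 62.5% at a median of 4597 UMIs, against 1.7%, 1.2% and 21.3% in DN-like cells at 10844.5 UMIs.

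The negative selection-like class was made of 2 clusters that differed in the receptors. In the first (2552 cells, led by Nrgn, Cldn10, Pdcd1 and Ikzf2) Tnfrsf9 stood alone: its RNA was at 0 through a median of 103 to 157 CPM over 12 mice, while Tnfrsf4 was at 0 through 2.75 to 6.91 CPM. Tnfrsf18 was at 0 through 41.95 to 78.8 CPM there, beside its mean of 50.2 CPM in signaled DP-like cells. In the second (1562 cells, led by Gadd45b, Nr4a1, Xcl1 and Nr4a3) all 3 were high, with medians of 285 CPM for Tnfrsf4 (36.7 to 517), 284 CPM for Tnfrsf9 (111 to 479) and 293 CPM for Tnfrsf18 (50.4 to 404). Antibodies followed for GITR, with a median of 18.9 per 10000 in the first cluster and 69.1 in the second, and less for 4-1BB (6.88 and 11.9) and OX40 (19.4 and 25.5). These values describe clusters that were built from the same cells and carry no test.

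The 3 contrasts between classes were tested within mice. The test was an exact sign-flip permutation over mice, two-sided, on log2(CPM + 5) for RNA and log2(antibody + 1) for protein, which understates the change of low values. Benjamini-Hochberg adjustment ran over all 18 tests, of which 15 passed an adjusted p of 0.05. These contrasts, and the gates below, were tested for the RNAs and antibodies of the 3 receptors alone. The share of all genes or of all antibodies that differ in them was not computed, so these calls have no background to be read against. The 3 genes were left out of the clustering, but genes that move with them were not.

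Between mature SP-like and Treg-like cells (12 mice) all 3 RNAs and all 3 antibodies were higher in Treg-like cells. Tnfrsf9 RNA was higher by 3.55 ± 0.80 log2 units (SD, exact permutation adjusted p = 8.79e-04, higher in 12 of 12 mice), Tnfrsf4 RNA by 2.63 ± 1.76 (adjusted p = 0.00135, 11 of 12) and Tnfrsf18 RNA by 1.84 ± 0.65 (adjusted p = 8.79e-04, 12 of 12). AND 1 was the exception for Tnfrsf4. Among antibodies GITR rose most, by 1.61 ± 0.54 (12 of 12), followed by OX40 at 0.76 ± 0.49 (11 of 12) and 4-1BB at 0.64 ± 0.40 (12 of 12). The order of the RNAs and that of the antibodies thus differed. In the 5 wild-type mice taken alone the RNA differences were 2.16 ± 0.35, 3.49 ± 0.26 and 1.76 ± 0.39 for Tnfrsf4, Tnfrsf9 and Tnfrsf18.

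Between signaled DP-like and negative selection-like cells (14 mice) all 6 measures were higher in the negative selection-like class. Tnfrsf9 RNA rose by 3.85 ± 1.44 (SD, exact permutation adjusted p = 8.79e-04, 13 of 14 mice), from a mean of 6.26 to 185 CPM. Tnfrsf4 RNA rose by 2.08 ± 1.2 (13 of 14) and Tnfrsf18 RNA by 1.18 ± 0.46 (14 of 14), at the same adjusted p. F5 1 was the mouse that went the other way for Tnfrsf4 and Tnfrsf9. GITR antibody rose by 1.1 ± 0.53 (13 of 14), 4-1BB antibody by 0.41 ± 0.38 (13 of 14) and OX40 antibody by 0.17 ± 0.22 (adjusted p = 0.00863, 11 of 14).

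The first contrast on the path, from quiescent to signaled DP-like cells (17 mice), was smaller and hung on the clustering. The signaled DP-like class is made of 2 clusters, and the one led by Itm2a and Id2 (6677 cells) held Tnfrsf4 at 28.5 CPM and Tnfrsf9 at 8.88 CPM, while the one led by Ctsl and Ccr9 (4758 cells) held 3.69 and 2.69 CPM, beside 3.42 and 1.65 CPM in the quiescent cluster, all over pooled cells and with no test. Tnfrsf4 RNA was higher in signaled cells by 0.93 ± 0.87 (exact permutation adjusted p = 0.00135, 15 of 17) and Tnfrsf9 RNA by 0.55 ± 0.43 (adjusted p = 5.49e-04, 16 of 17), while Tnfrsf18 RNA differed by -0.17 ± 0.80 (adjusted p = 0.387). Under 5 alternatives of clustering or filtering, Tnfrsf18 RNA was called lower in signaled cells, by -0.68 to -1.103 (exact permutation adjusted p from 2.75e-04 to 0.00586), so its difference here is not settled. The Tnfrsf4 value was -0.24 with no batch correction before clustering, -0.46 with an unweighted graph as well, -0.07 without the filters on antibody counts, 0.16 at resolution 1.5 and 0.14 with the receptors among the clustering genes, and its call was lost in each. The Tnfrsf9 call was lost with no batch correction (0.48, adjusted p = 0.0656). 4-1BB antibody was lower by 0.08 ± 0.15 (adjusted p = 0.0315), a call lost when any 1 of 5 mice was left out and, at adjusted p from 0.0538 to 0.588, with doublets kept, without the filters on antibody counts, at resolution 0.6 and with the unweighted graph. The OX40 and GITR antibodies gave -0.05 ± 0.14 and 0.20 ± 0.47, neither past the threshold. Alternatives called the GITR antibody in both directions, higher in signaled cells by 0.31 to 0.51 under 3 of them and lower by 0.11 under 1.

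**Figure D2:**
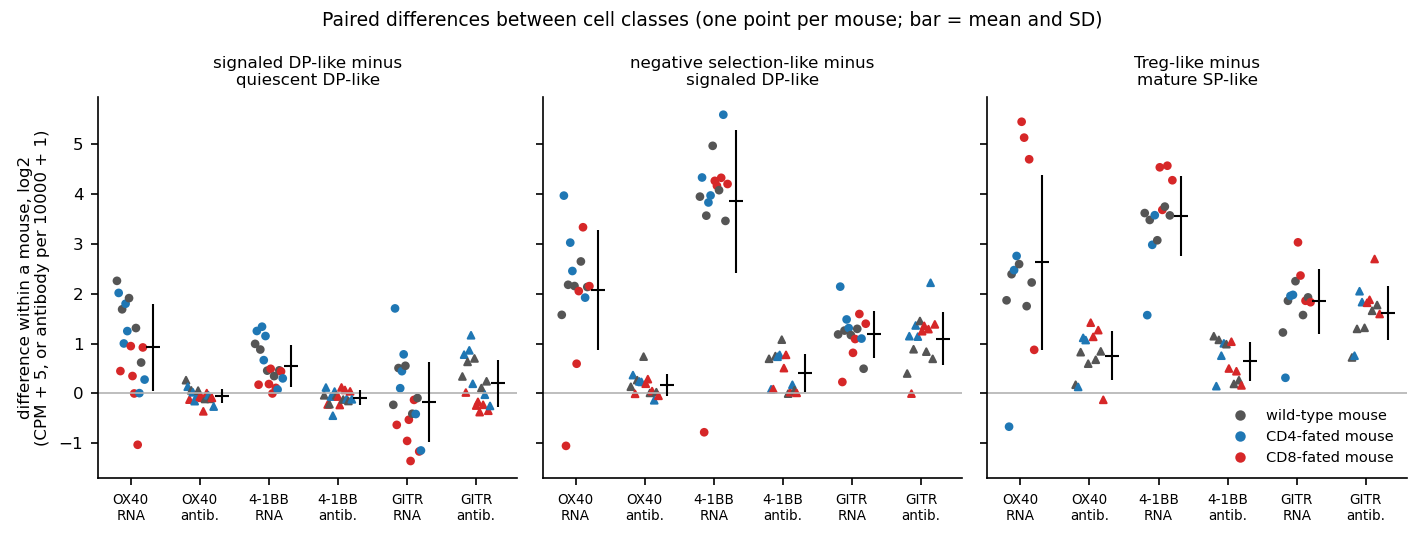
Within-mouse log2 differences of RNA and antibody for the 3 class contrasts, with a point per mouse and a cross at the mean with a bar of 1 SD. Treg-like minus mature SP-like and negative selection-like minus signaled DP-like lie mostly above 0 for RNA and antibody, whereas signaled minus quiescent DP-like lies around 0 for Tnfrsf18 RNA (-0.17 ± 0.80).

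No contrast was shown to differ between CD4-fated and CD8-fated mice. An exact permutation of the lineage labels gave its lowest adjusted p, 0.195, for 4 of the 18 measures. Labels were permuted over all mice, without regard to genotype family, so differences between families count as spread in it. For 3 of them the contrast was signaled minus quiescent DP-like in 6 against 6 mice. GITR antibody gave 0.45 in CD4-fated mice against -0.22 in CD8-fated mice (exact permutation p = 0.0195), Tnfrsf18 RNA 0.25 against -0.79 (exact permutation p = 0.0368) and Tnfrsf9 RNA 0.80 against 0.24 (exact permutation p = 0.0433), so the means over all mice pool lineages that lay on opposite sides of 0 for the first 2. The fourth was the step to Treg-like in Tnfrsf9 RNA, 2.70 in 3 CD4-fated mice and 4.26 in 4 CD8-fated mice. With 3 against 4 mice the smallest p such a test can give is 0.0286, before adjustment. Of mature SP-like cells pooled over mice, 94.4% of the CD4-fated were in 1 cluster (cluster 1) and 76.7% of the CD8-fated in another (cluster 13). Tnfrsf4 was at 62.9 and 3.45 CPM in the cells of these clusters. The shares were not taken per mouse or family. In mature SP-like cells Tnfrsf4 was at 12.9 and 15.1 CPM in OT-I and at 6.02 and 4.21 in MHCII-/- mice.

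Single-cell gates were also drawn on Foxp3 and Il2ra UMIs. The base of these gates holds negative selection-like cells, so the differences are not those of the class contrasts, and with Treg-like cells left out too few mice had enough Foxp3-positive cells to give a value. Cells of the signaled DP-like, negative selection-like, mature SP-like and Treg-like clusters were split by whether they held a Foxp3 UMI, and cells with neither a Foxp3 nor an Il2ra UMI were the base. In 9 mice with at least 20 Foxp3-positive cells (496 cells) Tnfrsf4 RNA was at 753 ± 185 CPM against 67.5 ± 38.9 in the base. Tnfrsf18 RNA was at 562 ± 99.99 against 97.4 ± 34.8 CPM, and Tnfrsf9 RNA at 180 ± 58.3 against 59.8 ± 19.5. The ranges of the gates did not overlap for Tnfrsf4, where the Foxp3-positive cells ran from 478 (WT 5) to 1065 CPM (MHCI-/- 2) and the base from 12.4 to 113.

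The log2 differences were 3.64 ± 1.01 for Tnfrsf4, 2.54 ± 0.39 for Tnfrsf18 and 1.49 ± 0.51 for Tnfrsf9 (SD, exact permutation p = 0.00391 each, the smallest 9 mice allow, adjusted p = 0.0067 over 12 tests). Each was higher in 9 of 9 mice. The antibodies were higher in 9 of 9 mice too, by 2.78 ± 0.56 for GITR, 1.65 ± 0.55 for OX40 and 0.62 ± 0.41 for 4-1BB. GITR antibody reached 326 ± 32.7 per 10000 in Foxp3-positive cells, from 275 (MHCII-/- 1) to 378 (WT 2). The 2 MHCII-/- mice had the widest Tnfrsf4 differences, 5.75 and 4.97, since their base cells held 12.4 and 12.5 CPM against 36.1 to 113 in the other 7.

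Cells with an Il2ra UMI and no Foxp3 UMI were also above the base. Whether they are Treg precursors or Tregs whose Foxp3 RNA was not captured was not tested. In 11 mice (453 cells) Tnfrsf4 RNA was higher by 1.95 ± 1.77 (exact permutation adjusted p = 0.0132, 10 of 11 mice), Tnfrsf9 RNA by 1.63 ± 1.61 (adjusted p = 0.0169, 9 of 11, with the call lost at a pseudocount of 1 CPM, adjusted p = 0.0703) and Tnfrsf18 RNA by 1.17 ± 1.26 (adjusted p = 0.0199, 9 of 11). The spread was wide: Tnfrsf4 stood at 1265 CPM in WT 3 and 1095 in MHCI-/- 2, and at 13.4 in OT-II 2 and 0 in AND 2. Antibody differences were 0.55 ± 0.55 for OX40, 0.86 ± 1.04 for GITR and 0.32 ± 0.45 for 4-1BB, all past the threshold, and the calls for GITR and 4-1BB were each lost when any 1 of 5 mice was left out. The 4-1BB call was also lost with doublets kept (adjusted p = 0.109), with lane correction and an unweighted graph (0.0996) and with that graph and no batch correction (0.125). With the Treg-like clusters removed from this gate (9 mice), none of the 6 differences passed by the exact permutation test, at adjusted p from 0.0859 to 0.293 (3 had an unadjusted p under 0.05), with 1.51 ± 1.82 for Tnfrsf4 RNA, 1.63 ± 1.87 for Tnfrsf9 RNA and 0.63 ± 1.12 for Tnfrsf18 RNA. In 4 of the 6 mice that had both gates, Tnfrsf4 RNA was higher in the Il2ra-positive than in the Foxp3-positive cells.

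**Figure D3:**
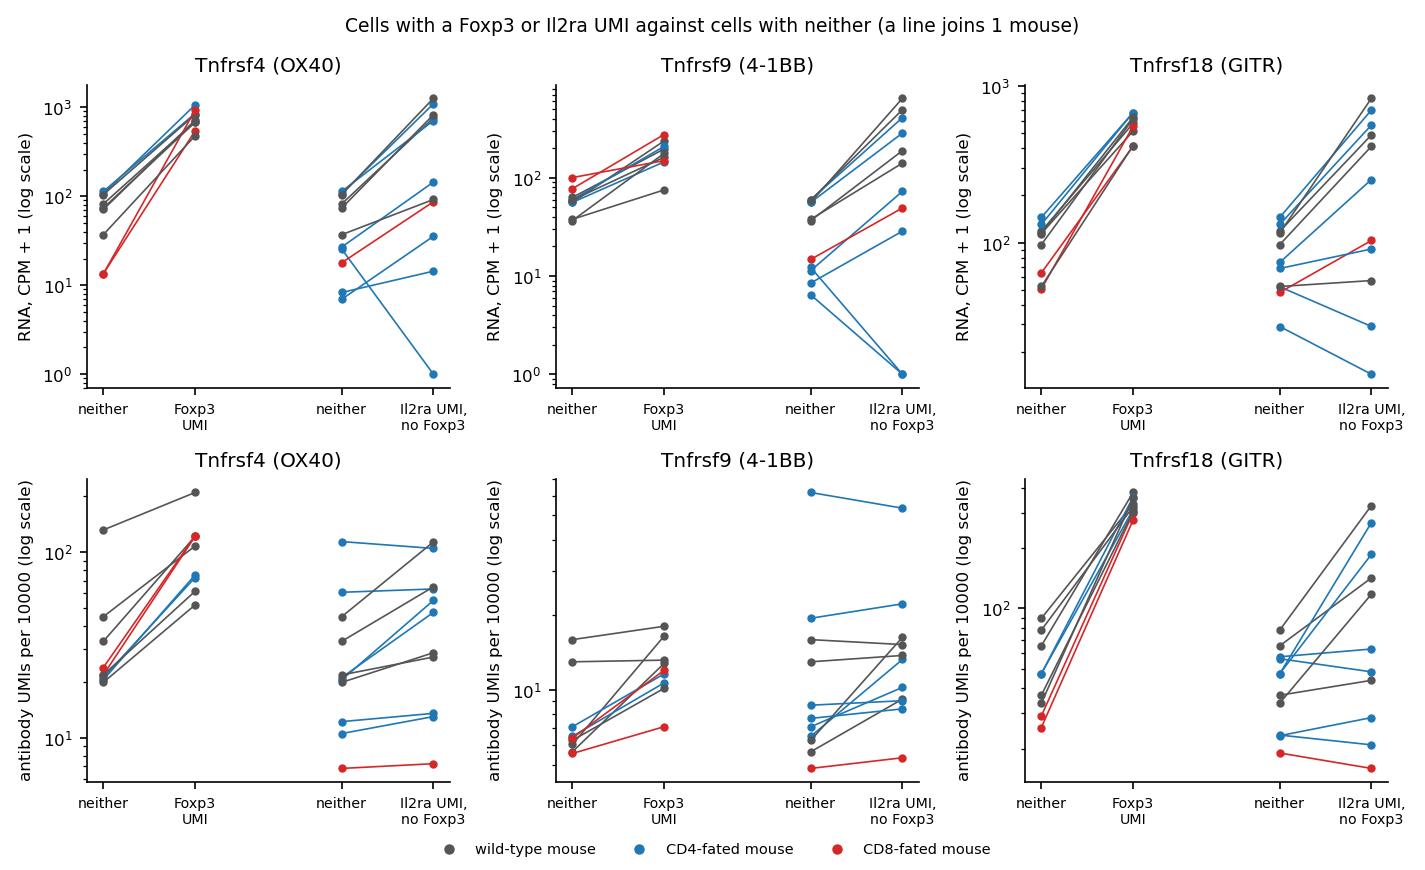
Levels of the 3 receptors (RNA in CPM + 1, top row, and antibody per 10000, bottom row, log scales) in cells with neither UMI, with an Il2ra UMI and no Foxp3 UMI, and with a Foxp3 UMI, with a point per mouse and a line joining the gates of a mouse. Tnfrsf4 RNA runs from 478 to 1065 CPM in Foxp3-positive cells of 9 mice and from 0 to 1265 CPM in Il2ra-positive cells of 11 mice, and the Il2ra-positive cells are higher in 4 of the 6 mice with both.

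A cell with a UMI of one receptor held a UMI of another more often than a cell without, in 6 of 9 tests. At 2000 UMIs per cell, 40.8% of Treg-like cells with a Tnfrsf18 UMI also held Tnfrsf4, against 20.7% of those without (mean over 12 mice, difference 20.1 ± 15.7 percentage points, exact permutation adjusted p = 0.0117 over 9 tests, higher in 10 of 12). In negative selection-like cells the shares were 28.3% and 6.70% (21.6 ± 17.8 points, adjusted p = 0.011, 11 of 14 mice). That class pools the cluster low in Tnfrsf4 and Tnfrsf18 with the cluster high in both, and joint detection within each was not tested. Tnfrsf4 with Tnfrsf9 differed by 10.0 ± 11.3 points in Treg-like cells (adjusted p = 0.0273) and by 14.3 ± 12.3 points in negative selection-like cells (adjusted p = 0.011). Tnfrsf9 with Tnfrsf18 passed in negative selection-like cells (12.3 ± 14.99 points, adjusted p = 0.0273) and missed in Treg-like cells (5.96 ± 8.78, adjusted p = 0.054). In signaled DP-like cells Tnfrsf4 with Tnfrsf18 passed at 4.24 ± 7.10 points (adjusted p = 0.0439, 7 of 16 mice). This class too pools a cluster higher in both (28.47 and 66.35 CPM over pooled cells) with one lower in both (3.693 and 41.31 CPM). Joint detection within each of these clusters was not tested either. Calls that involve Tnfrsf9 turned with the settings. Tnfrsf4 with Tnfrsf9 in Treg-like cells was lost at 1000 UMIs (adjusted p = 0.224) and in both clusterings without batch correction (0.197 and 0.52), and Tnfrsf9 with Tnfrsf18 in negative selection-like cells was lost with the unweighted graph (0.0557). Tnfrsf9 with Tnfrsf18 was gained in Treg-like cells at 1000 UMIs (0.0167), with doublets kept (0.0357) and with lane correction and an unweighted graph (0.0189), and in signaled DP-like cells without thinning (0.00824) and with the unweighted graph (0.0235). Tnfrsf4 with Tnfrsf9 was gained in signaled DP-like cells without thinning (0.0119), with doublets kept (0.0275) and with the unweighted graph (0.0303). The signaled DP-like call was lost with lane correction and an unweighted graph (0.1) and in both clusterings without batch correction. Leaving out a single mouse moved the number of calls between 3 and 7. The calls of Tnfrsf4 with Tnfrsf18 in Treg-like cells and of Tnfrsf4 with either in negative selection-like cells were kept in each case, and the other 3 were lost without any 1 of 4 to 7 mice, WT 1, WT 4 and both MHCI-/- mice in each. All 3 UMIs were in 6.89% of the thinned Treg-like cells, 2.72% of negative selection-like and 0.148% of mature SP-like cells.

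Along positive selection, from signaled DP to mature cells, the receptors rose and fell. The 29439 cells of this path were ordered by pseudotime, an ordering built on RNA without the 3 genes, and cut into 5 bins of equal cell number. The path took in an unnamed cluster (4414 cells, led by Tesc and Runx3) whose closest class was on it. Cells of CD4-fated or CD8-fated mice on the branch of the other lineage, by CD4 and CD8 SP markers, were left out before binning. They were at most 4.99% of a mouse's path cells, in AND 1. In wild-type mice Tnfrsf4 went from 2.80 ± 2.49 CPM in bin 1 to 74.1 ± 29.2 in bin 3 and 31.6 ± 12.95 in bin 5. Tnfrsf18 went from 41.7 ± 9.17 to 115 ± 30.3 and 60.9 ± 17.9 CPM, and Tnfrsf9 from 3.86 ± 2.56 to 22.3 ± 9.93 and 10.8 ± 4.31. Each was highest in bin 3 by its mean, with Tnfrsf4 level with it in bin 4 (74.1 ± 24.1).

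A change over bins was tested in each lineage with the quasi-likelihood F test of edgeR, the mouse as a block, on all genes. All 3 RNAs passed in CD4-fated mice, where 57.4% of 8799 genes did, and in CD8-fated mice, where 61.3% of 9433 did, so a call is what most genes get here. In CD4-fated mice the adjusted p was 2.97e-13 for Tnfrsf4, 2.37e-16 for Tnfrsf18 and 6.24e-11 for Tnfrsf9, whose call was lost when cells called as doublets were kept (adjusted p = 0.0805). In CD8-fated mice it was 5.58e-04, 5.95e-08 and 7.455e-11. Among antibodies, GITR passed in both lineages (1.80e-08 for CD4-fated mice, 1.12e-06 for CD8-fated), OX40 in CD4-fated mice (6.32e-04, a call lost without AND 2, either MHCI-/- mouse or OT-II 2, at adjusted p up to 0.356) and not in CD8-fated mice (0.0569), and 4-1BB in neither (0.286 and 0.686). DESeq2 called OX40 antibody in CD8-fated mice (adjusted p = 0.0321). Of the 111 antibodies 43.2% and 46.8% passed.

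**Figure D4:**
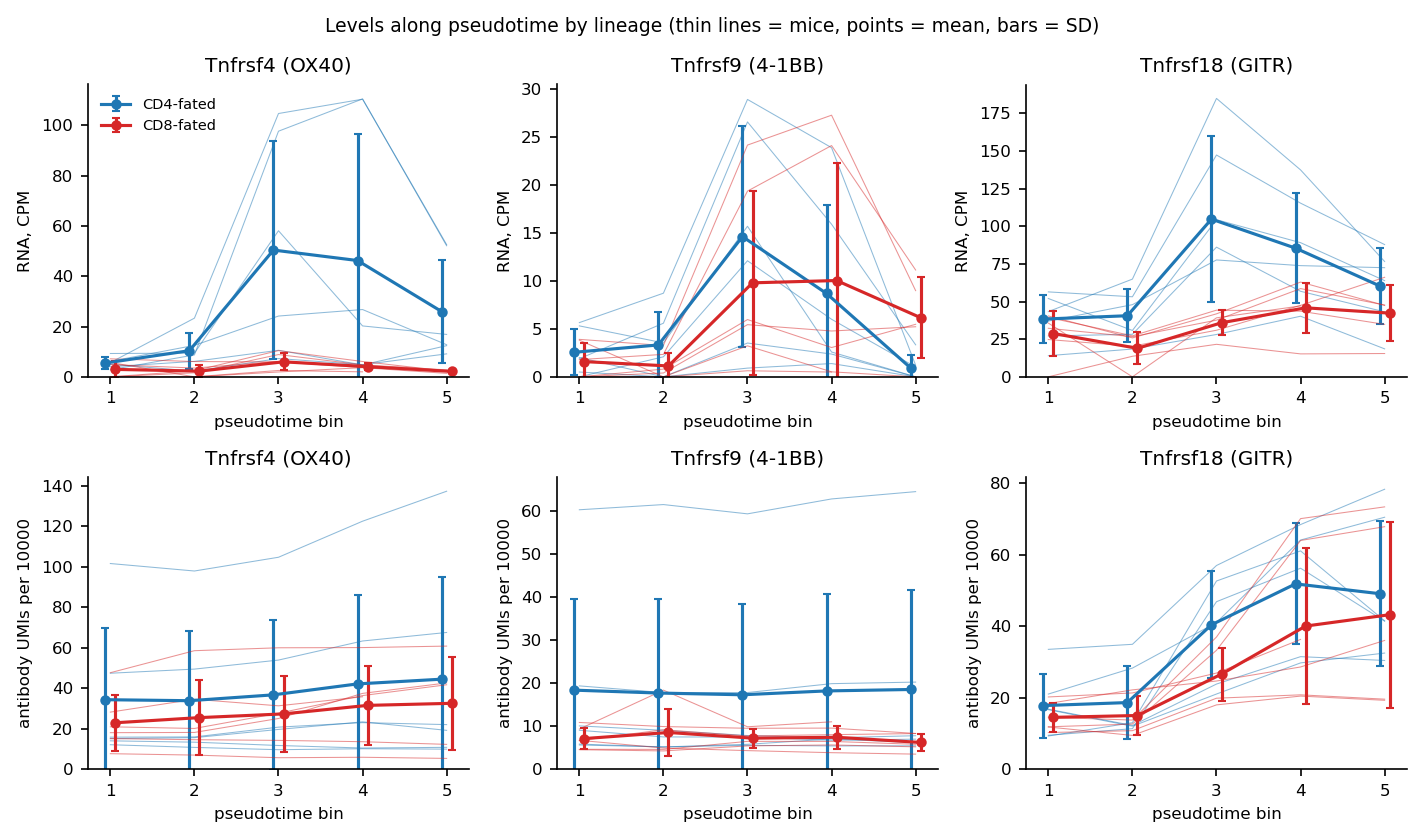
RNA (top row, CPM) and antibody (bottom row, UMIs per 10000) of the 3 receptors over 5 pseudotime bins, for CD4-fated and CD8-fated mice, with a thin line per mouse, points at the mean and bars of 1 SD cut off at 0. Tnfrsf4 RNA of CD8-fated mice stays at or below 10.4 CPM in every bin while CD4-fated mice reach 105 CPM in bin 3 and 111 CPM in bin 4.

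The lineages parted in Tnfrsf4 and Tnfrsf18 RNA and not, by these tests, in antibody. CD4-fated and CD8-fated mice were compared within each bin with edgeR, adjusting for genotype family, over all genes that passed a filter on low counts. Of 8 RNA tests that passed it, 4 were called, all higher in CD4-fated mice. The filter removed Tnfrsf4 in bins 1, 2 and 4 and Tnfrsf9 in all but bin 3, whereas Tnfrsf18 passed in each bin.

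In bin 3 Tnfrsf4 RNA was at 7.27, 41.1 and 105 CPM (lowest, median and highest of 6 CD4-fated mice) against 1.94, 6.02 and 10.4 in 6 CD8-fated mice. The difference was 3.02 ± 0.50 log2 units (SE, edgeR adjusted p = 0.00144), in a bin where 4.64% of 8227 genes were called, 2.53% higher in CD4-fated mice and 2.11% in CD8-fated mice. The groups overlapped through the OT pair: OT-II mice were at 7.27 and 10.6 CPM (8 and 3 UMIs) and OT-I mice at 8.86 and 10.4 (31 and 14 UMIs). MHCI-/- mice were at 97.7 and 105 against 5.95 and 6.10 in MHCII-/- mice, and AND at 24.2 and 58.1 against 1.94 and 2.53 in F5.

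In bin 5 Tnfrsf4 RNA did not overlap between lineages, at 9.13, 14.8 and 52.6 CPM in 6 CD4-fated and 1.38, 2.22 and 2.77 in 5 CD8-fated mice (difference 3.82 ± 0.37, SE, edgeR adjusted p = 9.49e-06). The OT-II values rest on 8 and 4 UMIs, the OT-I values on 17 and 5, and the F5 value on 1 UMI. How many of all genes do not overlap between lineages was not counted. There 15.1% of 8625 genes were called, 7.04% higher in CD4-fated mice and 8.08% in CD8-fated mice. CD4-fated mice were above CD8-fated mice in each of the 3 families. In bin 4, where Tnfrsf4 was filtered out, MHCI-/- mice stood at 110.4 and 110.5 CPM against 3.70 and 4.08 in MHCII-/-. OT-II mice stood at 4.74 and 4.84 (2 and 7 UMIs) against 4.77 and 6.10 in OT-I (14 and 6 UMIs). Whether the families differ in this gap was not tested.

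Tnfrsf18 RNA was called in bins 3 and 4. In bin 3 it was at 28.1, 95.3 and 185 CPM in CD4-fated mice and 21.6, 38.4 and 44.3 in CD8-fated mice (difference 1.55 ± 0.23, SE, edgeR adjusted p = 6.08e-04). In bin 4, with 6.48% of 8531 genes called (3.2% higher in CD4-fated, 3.28% in CD8-fated mice), it was at 40.3, 81.5 and 138 against 15.3, 47.3 and 63.0 CPM (0.89 ± 0.19, adjusted p = 0.00911). The groups overlapped in both bins. Bins 2 and 5 gave 0.89 ± 0.25 (adjusted p = 0.17, with 0.44% of genes called, 0.272% higher in CD4-fated mice) and 0.65 ± 0.25 (adjusted p = 0.101), and bin 1, where no gene of 6395 was called by edgeR or DESeq2 and 195 had an unadjusted p under 0.05, gave 0.43 ± 0.28. The calls of Tnfrsf18 are not bounded by bins 3 and 4, since 8 alternatives, the replicate block among them, called it in bin 5 (0.62 to 0.96, adjusted p from 0.00231 to 0.0424) and 4 in bin 2 (0.88 to 1.32, adjusted p from 0.0164 to 0.0396), beside those that left out a mouse.

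Without the Rag1-deficient AND and F5 mice, Tnfrsf4 in bin 3 (2.66, adjusted p = 0.0607) and Tnfrsf18 in bin 4 (1.1, adjusted p = 0.0536) no longer passed, and Tnfrsf4 in bin 5 and Tnfrsf18 in bin 3 did. This leaves 4 mice against 4. Without the family covariate Tnfrsf18 in bin 4 was not called either (0.93, adjusted p = 0.133), and the other 3 were.

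Tnfrsf9 RNA was not called between lineages. In bin 3 it was at 0.908, 13.9 and 28.9 CPM in CD4-fated mice and 0.632, 5.70 and 24.1 in CD8-fated mice (0.66 ± 0.39, SE, edgeR adjusted p = 0.465). It was called higher in CD4-fated mice there with the receptors among the clustering genes (1.399, adjusted p = 0.0366) and with an unweighted graph (1.385, adjusted p = 0.038). In bin 5 it was at 0, 0.511 and 3.33 CPM in CD4-fated mice and at 0, 5.47 and 11.1 in CD8-fated mice, which was below the filter. An edgeR fit without the filter gave -2.05 ± 0.44 there (adjusted p = 6.36e-05), lower in CD4-fated mice, and such fits gave 3.33 ± 0.24 for Tnfrsf4 in bin 4 (adjusted p = 1.74e-40) and 1.68 ± 0.39 in bin 2 (adjusted p = 0.00304), higher in CD4-fated mice. The unadjusted p-values of these fits are those of a normal distribution for the difference over its SE. They make no allowance for the small number of mice, so neither they nor these SEs measure the spread over mice. For Tnfrsf9 the lone F5 mouse in bin 5 was at 0, whereas MHCII-/- mice were at 8.97 and 11.1 CPM and OT-I mice at 5.21 and 5.47.

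None of the antibodies was called between lineages in any of the 5 bins by edgeR, whose calls covered 0% of the 111 antibodies in bins 1 and 2, 5.41% in bin 3 and 9.91% in bins 4 and 5. By direction these were 3.6% and 1.8% higher in CD4-fated mice in bins 4 and 5, and 6.31% and 8.11% higher in CD8-fated mice. At an unadjusted p under 0.05 the antibody tests of 4-1BB passed in bins 1, 3, 4 and 5, and DESeq2 called 4-1BB in bins 3, 4 and 5. AND 2 stood at 58.7 to 64.6 per 10000 in 4-1BB antibody in the bins and DP-like classes, when the next CD4-fated mouse was at 20.2 or lower. That lane had the fewest antibody UMIs per cell, and the part this plays was not tested. In bin 5 OX40 antibody in the MHC family ran against its RNA, with 19.1 and 21.96 per 10000 in MHCI-/- and 41.6 and 42.5 in MHCII-/- mice. So did GITR antibody, with 41.39 and 41.49 per 10000 in MHCI-/- against 67.8 and 73.4 in MHCII-/- mice, where Tnfrsf18 RNA was at 87.9 and 76.6 against 47.7 and 47.5 CPM. In the other families GITR antibody was higher in CD4-fated mice in bin 5. OT-II mice were at 30.4 and 32.5 against 19.25 and 19.6 per 10000 in OT-I, and AND mice at 70.49 and 78.32 against 36 in the lone F5 mouse. In bin 3 it was higher in MHCI-/- mice, as Tnfrsf18 RNA was, at 46.85 and 52.64 against 33.25 and 36.96 in MHCII-/- mice. OX40 antibody in bin 5 was higher in AND mice, as Tnfrsf4 RNA was, at 67.46 and 137.2 against 60.73 in the lone F5 mouse. OT-II mice were at 10.74 and 9.854 in it, between the 5.272 and 12.2 of the OT-I mice.

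In negative selection-like and Treg-like cells no receptor was called between lineages by edgeR with the family as covariate and called doublets removed. With doublets kept Tnfrsf4 RNA was called in negative selection-like cells (2.58, edgeR adjusted p = 0.0181), and DESeq2 called the 4-1BB and GITR antibodies there, both higher in CD4-fated mice. In negative selection-like cells (4 CD4-fated and 5 CD8-fated mice) Tnfrsf4 was at 28.6 through 289 to 323 CPM against 0 through 33.2 to 97.7, a difference of 2.88 ± 0.75 (SE, edgeR adjusted p = 0.481). Tnfrsf18 was at 114 through 251 to 288 CPM against 30.1 through 59.3 to 118 (1.69 ± 0.36, adjusted p = 0.382). Tnfrsf9 did not overlap, with 233 through 256 to 275 CPM against 0 through 119.3 to 177 (1.29 ± 0.42, adjusted p = 0.789). Genes without overlap were not counted here either. Of 6315 genes edgeR called 0% and DESeq2 5 genes, and 310 had an unadjusted p under 0.05. Over cells pooled from all mice of a lineage, the cluster with all 3 receptors high held 57.6% of the CD4-fated and 29.8% of the CD8-fated cells of the class. The mice were not alike in this. This receptor-high cluster and the other held 162 and 121, and 230 and 182 cells in MHCI-/- mice, and 91 and 287, and 140 and 482 in MHCII-/- mice. OT-I mice had 68 and 33, and 67 and 20, so most of their cells were in the receptor-high cluster. Within that cluster Tnfrsf4 was at 315, 451 and 517 CPM in the 3 CD4-fated mice (AND 1, MHCI-/- 2 and MHCI-/- 1) and at 36.7, 45.3, 119.7 and 123.9 CPM in the 4 CD8-fated mice (MHCII-/- 1, OT-I 2, MHCII-/- 2 and OT-I 1). This cluster and its comparison were looked at after the data had been seen and carry no test.

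In Treg-like cells (3 CD4-fated and 4 CD8-fated mice) the differences were 0.54 ± 0.41 for Tnfrsf4, 0.61 ± 0.26 for Tnfrsf18 and 0.15 ± 0.21 for Tnfrsf9 (SE, edgeR adjusted p from 0.418 to 0.898, with 1.02% of 5091 genes called, 0.334% higher in CD4-fated mice). These mice were AND 1 and the 2 MHCI-/- mice against the 2 MHCII-/- and 2 OT-I mice, so with the family as covariate the difference rests on 2 against 2 MHC-deficient mice. With the replicate number as a block Tnfrsf4 (0.57, edgeR adjusted p = 0.00159) and Tnfrsf18 (0.63, adjusted p = 6e-04) were called higher and the OX40 antibody lower in CD4-fated mice, from 2 pairs that leave 1 residual degree of freedom. The number marks the experiment in the AND and F5 mice and, in the OT mice, the set of lanes that stood apart, but nothing ties it to a batch in the MHC-deficient mice on which these calls rest. MHCI-/- mice were at 507 and 611 CPM of Tnfrsf4 and MHCII-/- mice at 474 and 316, while their OX40 antibody was at 48.1 and 48.4 against 103 and 88.7 per 10000. The antibody tests were not called by the fit with the family either, and 21.6% of the 111 antibodies were.

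RNA and antibody levels were correlated for GITR more than for the others. Across 135 sums of a mouse and a class, which share mice, lanes and depth, Pearson's r between log RNA and log antibody was 0.67 for GITR, 0.21 for OX40 and 0.0046 for 4-1BB. After each mouse's mean was removed it was 0.69, 0.49 and 0.56. The gap between these values comes from differences between mice in their means. Such differences are described above for the OX40 antibody by experiment and for 4-1BB in AND 2, and their part in this gap was not tested.

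The timing of RNA and antibody along pseudotime was compared in 10 bins, as the first bin at which each passed the midpoint between bin 1 and its maximum. Over 15 mice the GITR antibody came later than its RNA by 0.867 ± 1.46 bins (later in 9 mice and equal in 4, exact permutation p = 0.0381, adjusted p = 0.0667 over 3 tests). The 4-1BB antibody was placed earlier by 1.60 ± 2.61 bins (exact permutation p = 0.0444, adjusted p = 0.0667, later in 4 mice and equal in 3) and OX40 antibody by 1.00 ± 3.68 bins (exact permutation p = 0.35, later in 7 and equal in 2). The mice with an earlier OX40 antibody were those of the third experiment (WT 4, WT 5, OT-I and OT-II), so its mean pools mice that differ in direction. Over the 5 bins their OX40 and 4-1BB antibodies were highest in bin 1, as in WT 4 with 17.33 for 4-1BB, against 12.96 in bin 5. A level that is highest at the start is placed at or near bin 1 without a rise. An earlier position in these mice thus does not show protein before RNA. None of the 3 timing tests passed after adjustment. Timed by the bin of the maximum, GITR antibody came later by 1.93 bins (exact permutation adjusted p = 0.00952). The antibodies of 4-1BB, and of OX40 in CD8-fated mice, were not called over bins by edgeR, so the position of their midpoints is uncertain.

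The genes most like each receptor were named over the same 135 sums among 7980 genes, by Pearson's r of log2(CPM + 5). For Tnfrsf4 they were Sdf4 (0.81), Tnfrsf9 (0.80), Tnfrsf18 (0.79), Arhgap20 (0.79) and Tank (0.78), and for Tnfrsf9 Arhgap20 (0.88), Trpm1 (0.82), Lad1 (0.82), Tnfrsf4 (0.80) and Xcl1 (0.78). For Tnfrsf18 they were Sdf4 (0.82), Sdhaf1 (0.81), Tnfrsf4 (0.79), Ltb (0.79) and Gnpnat1 (0.77). Each receptor was thus among the 6 closest genes of the other 2. Outside Treg-like and negative selection-like cells (111 sums) the 3 pairs fell to 0.53 to 0.54.

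Sdf4, which codes for a calcium-binding protein of the secretory pathway, is the gene that ends just before Tnfrsf4. It was at 263 ± 38.7 CPM in Treg-like and 167 ± 29.2 in mature SP-like cells, higher in 12 of 12 mice, and at 206 ± 50.5 in negative selection-like cells. Whether reads of one gene were counted to the other was not tested. B3galt6, the gene before Sdf4 among those looked at, gave r of 0.21 with Tnfrsf4.

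RNA of the ligands was low in these cells, for a reason that was not tested. Tnfsf18, the GITR ligand, had 1 UMI, in myeloid-like cells. Tnfsf4, the OX40 ligand, was at 1.44 CPM in Treg-like (95% exact Poisson interval 0.766 to 2.46) and 1.29 in negative selection-like cells (0.835 to 1.91). Tnfsf9, the 4-1BB ligand, had its highest value in myeloid-like cells at 5.63 CPM (3.48 to 8.60). That interval overlaps those of other classes, such as Treg-like cells at 2.88 CPM (1.88 to 4.21), so the order is not resolved.

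Further down the pathway, genes were taken from a list of adaptors and other signaling genes and from a list of NF-kappaB genes. Of those tested, 9 of 10 and 8 of 9 changed over pseudotime in CD4-fated mice, and 6 of 10 and 8 of 9 in CD8-fated mice, against 57.4% and 61.3% of all genes. Among them were Traf1 and Traf4, which code for TRAF adaptors (adjusted p = 4.15e-09 and 7.30e-18 in CD4-fated mice), and Relb, an NF-kappaB subunit of the noncanonical arm (1.24e-11). Between the lineages none of the 6 to 9 NF-kappaB genes tested in a bin was called, where 0% to 15.1% of all genes were. In bin 5, where 15.1% of all genes were called, Birc3 (0.94 ± 0.22, SE, edgeR adjusted p = 0.012), Traf5 (0.63 ± 0.17, adjusted p = 0.0206) and Map3k14 (0.58 ± 0.16, adjusted p = 0.0261) of the first list were higher in CD4-fated mice and Traf4 (-0.79 ± 0.16, adjusted p = 0.00382) in CD8-fated mice. The median over the 10 genes of that list was 0.19, beside 0.01 over all genes.

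Of 12 other TNF receptors, 6 passed the filter in bin 5 and 1 was called, near the 15.1% of all genes called there. It was Tnfrsf25 (1.61 ± 0.29, SE, edgeR adjusted p = 0.00209), higher in CD4-fated mice as Tnfrsf4 was. Of 10 genes of agonist selection, 5 were tested there and 3 called, against that share of all genes. Ikzf4, a partner of Foxp3, was higher in CD4-fated mice (1.11 ± 0.36, adjusted p = 0.0493), and Ikzf2 (-4.05 ± 0.28, adjusted p = 5.32e-07) and Il2rb (-2.56 ± 0.30, adjusted p = 6.14e-05) in CD8-fated mice. In bin 3, where 4.64% of all genes were called, 3 of 4 tested were called. The costimulatory receptor Icos was higher in CD4-fated mice (0.79 ± 0.14, adjusted p = 0.00266), and Ikzf2 (-2.08 ± 0.27, adjusted p = 2.05e-04) and Il2rb (-1.42 ± 0.28, adjusted p = 0.00639) in CD8-fated mice.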

How the data were processed

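The authors counted reads with Cell Ranger 3.1.0 on mm10 (GRCm38), per the labels, and deposited raw UMI counts of genes and antibodies for each barcode, with no pooling of lanes. Cells needed 200 genes, at most 15% mitochondrial UMIs, 1000 to 10000 antibody UMIs and 70 antibodies detected. Called doublets (2827) were removed. RNA of 2000 variable genes, without Tnfrsf4, Tnfrsf9 and Tnfrsf18, was reduced to 30 components, corrected over 4 batches, and clustered at resolution 1. Clusters were named from marker lists, and 4 with 13207 cells stayed unnamed. The unnamed cluster led by Tesc and Runx3 still entered the pseudotime path. No CD4 SP-like class arose. Of 5 clusterings tried, this one was chosen after their leading genes and mice had been seen, among which the 3 receptors stood. The other 4 are given as alternatives.

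UMIs were summed per mouse, with the 2 lanes each of WT 4 and WT 5 joined, so the mouse is the replicate. Sums were tested with edgeR 4.0.16 (TMM, quasi-likelihood F test, Benjamini-Hochberg) in R 4.3.3 with DESeq2 1.42.0 as an alternative, and class contrasts by exact sign-flip permutation. On simulated data edgeR recovered 86.2% of 2-fold and 100% of 4-fold changes between lineages in bin 3. Of its calls there 8.76% were false, more than the threshold of 0.05 aims at. The simulated means held no family or experiment effect, and the changed genes were drawn from those past the low-count filter. These rates need not hold for the receptors.

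The receptors and gene lists were chosen with earlier results of these data known. Named genes were the 3 receptors, up to 4 per list with the smallest adjusted p in each direction, and the 5 genes most like each receptor.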

Additional observations from a re-analysis of the deposited data

Results flagged for a closer look

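In 20 of 144 groups of 4 to 10 mice, a single mouse lay far from the others by Dixon's criterion at the 95% level, which chance alone meets in about 1 of 20 groups. Of these, 17 were antibody levels of WT 1, AND 1 or AND 2, and the part of depth and experiment in them was not tested.

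AND 2 was the highest CD4-fated mouse in 4-1BB antibody throughout, at 60.34, 61.55, 59.39, 62.86 and 64.56 per 10000 in bins 1 to 5. It was at 58.67 in quiescent DP-like, 60.27 in signaled DP-like and 63.01 in mature SP-like cells, with the next mouse between 16.56 and 20.24. Its OX40 antibody in quiescent DP-like cells was 106 per 10000 against 45.92 in the next.

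WT 1 was the highest wild-type mouse in OX40 antibody, at 94.36 per 10000 in quiescent DP-like, 113.7 in signaled DP-like, 124.8 in negative selection-like and 156.8 in mature SP-like cells. Its GITR antibody was 45.83 in quiescent DP-like and 58.3 in signaled DP-like cells. WT 1 is the only wild-type mouse of the first experiment. AND 1, also of the first experiment, was the highest of 4 CD4-fated mice in negative selection-like cells, with 65.47 for OX40 and 19.2 for 4-1BB antibody.

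The other 3 were RNA levels. Tnfrsf9 in bin 5 was 3.332 CPM in MHCI-/- 2 (next 1.212), Tnfrsf4 in quiescent DP-like cells 15.84 CPM in OT-I 1 (next 2.583), and Tnfrsf18 in mature SP-like cells 14.32 CPM in OT-I 2, the lowest of 6 CD8-fated mice (next 36.57).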

How the results depend on the processing

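The calls for negative selection-like and Treg-like cells were kept by their class contrasts in each alternative that formed the classes. The unweighted graph formed no Treg-like class and called 9 of 12 class contrasts. With Treg-like cells left out, 0 of 6 gate differences were called, and the Foxp3 gate then gave no value because fewer than 2 mice had enough cells. Timing by the bin of the maximum called 1 of 3. Between lineages in bins, DESeq2 called 7 of 23 and leaving out the AND and F5 mice, chosen after the data were seen, 2 (main 4). In negative selection-like and Treg-like cells 1 was called with doublets kept, 2 by DESeq2 and 3 with the replicate block, also chosen after the data were seen (main 0 of 12).

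Contrasts of signaled with quiescent DP-like cells turned with the clustering. Tnfrsf4 RNA was -0.069 with no protein filters, -0.237 with no batch correction and -0.463 with no batch correction and an unweighted graph. GITR antibody was -0.034, -0.018 and -0.0554 in these, -0.111 at resolution 1.5 (adjusted p = 0.0355 by exact permutation) and -0.0223 with the receptors among the clustering genes. OX40 antibody was 0.0128 at resolution 0.6 and 0.0013 with the unweighted graph, where Tnfrsf18 RNA was 0.32, while -0.063, -0.108 and -0.0651 were called for OX40 antibody without protein filters, at resolution 1.5 and with the receptors among the clustering genes (exact permutation adjusted p = 0.044, 0.00326 and 0.0365). Joint detection of Tnfrsf4 with Tnfrsf18 in signaled DP-like cells was -0.385 and -0.581 points without batch correction, the second also with an unweighted graph. Between lineages, Tnfrsf18 RNA in bin 1 was -0.00838 with no batch correction, Tnfrsf9 RNA in bin 3 -0.13 with doublets kept, and Tnfrsf9 RNA in Treg-like cells -0.16 without the family covariate. The cause was not tested.

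With 1 mouse left out, calls ranged from 14 to 16 for class contrasts, 10 to 12 for gates, 3 to 7 for joint detection, 0 to 1 for timing, 8 to 9 for the course, 4 to 6 between lineages in bins and 0 to 4 in negative selection-like and Treg-like cells. Those last calls were gained without OT-I 1, OT-I 2 or OT-II 1.

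Same-numbered mice did not deviate together in each family (correlations from 0.0005 to 0.591), and the number marks the experiment in the AND and F5 mice alone, so the numbers were not taken to pair all mice. With the replicate block 6 lineage tests were called, with Tnfrsf18 gained in bins 2 (0.89, edgeR adjusted p = 0.0396) and 5 (0.71, adjusted p = 0.00231).

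Lineage differences of the antibodies, few of them far from 0, changed sign in 40 of 270 checks by bin and 2 of 24 in negative selection-like and Treg-like cells, so they are given as calls. No alternative called OX40 or GITR antibody in a bin.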
